A study of Mus musculus with 13 samples.

Results

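Chemokines are small secreted proteins that direct the movement of cells through receptors coupled to G proteins. CC and CXC chemokines differ in the spacing of their first cysteines. In bone marrow, CXCL12 made by stromal cells holds stem cells in their niche through the receptor CXCR4, and CCL3 is known as an inhibitor of stem cell proliferation. The genes described here are 10 chemokine and receptor genes: Ccl3, Ccl4, Ccl5, Ccl6, Ccl9 and Cxcl12, and the receptor genes Cxcr4, Cxcr2, Ccr1 and Ccr2. They were taken as chemokine genes of stem and progenitor cells, and Ccl3 and Ccl4 were chosen because their values on these arrays were lower in WT SLAM cells than in WT KLS cells. The 10 genes had 54 probe sets that the annotation gave to exactly 1 gene, of 208397 such probe sets in all. All 10 had enough probe sets for a gene value, of 15107 genes that did, and 9 of the 10 passed the filter on low values, of 10575 tested genes. Ccr1 did not pass it.

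The mice expressed PML-RARA, the fusion protein of acute promyelocytic leukaemia, from the murine locus of Ctsg, the gene of the myeloid protease cathepsin G, so expression of the fusion follows that locus; they are called mCG-PR (mCG-PR N17 in the labels), and WT littermates were the controls. The labels give Bl/6 Taconic as the strain of all animals, and each array held RNA of an individual mouse from the marrow of the hind leg bones. The groups were mCG-PR SLAM cells of 7 weeks (n = 2), WT SLAM cells of 6 weeks (n = 2), mCG-PR KLS cells of 6 weeks (n = 3) and of 13 weeks (n = 2), and WT KLS cells of 12 to 13 weeks (n = 4). KLS cells (Kit-positive, lineage-negative and Sca1-positive) comprise stem cells together with multipotent progenitors. SLAM cells are sorted by receptors of the SLAM family, which enriches for long-term stem cells; for both sorts the gates are not given in the sources. Values are log2 intensity on Affymetrix Mouse Exon 1.0 ST arrays, and the value of a gene is the median over its probe sets. Errors given with ± are limma's standard errors, or SDs where so marked. A gene was called at a Benjamini-Hochberg adjusted p under 0.05 over all tested genes.

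The sort was checked on its surface genes. Cd48, a gene of the SLAM family that long-term stem cells are known to lack, was at 4.26 and 4.24 in mCG-PR SLAM cells and 4.70 and 5.56 in WT SLAM cells, and between 8.28 and 9.61 on the 9 KLS arrays. Slamf1, the gene of the SLAM marker CD150, was at 6.21 and 6.63 in mCG-PR SLAM cells, against 7.68 and 7.47 in WT SLAM cells; the highest KLS array, in mCG-PR mice of 13 weeks, was at 6.31. Genes of the Y chromosome averaged 4.28 and 4.23 in mCG-PR SLAM cells and 4.53 on mCG-PR KLS replicate 3 of 6 weeks, and between 7.67 and 8.48 on the other 10 arrays. In SLAM cells the low Y-linked level and the genotype cannot be told apart. Late neutrophil genes averaged 10.76 on WT SLAM replicate 2, against a range of 7.57 to 9.11 elsewhere. The medians of the arrays lay between 98.6 and 115.3 on the linear intensity scale. The few arrays in each group limit the precision.

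Of the 5 CC chemokine genes, Ccl5, Ccl9, Ccl6, Ccl3 and Ccl4 follow one another on mouse chromosome 11 with no other protein-coding gene between them in the RefSeq table. Ccl3 and Ccl9 were low on every SLAM array and Ccl6, which lies between them, was not, so the 250 bases before their transcript starts are shown for comparison. RefSeq, build GRCm38.p6, gives them on the minus strand, for Ccl3 at chr11:83649379-83649628, for Ccl6 at chr11:83593088-83593337 and for Ccl9 at chr11:83578637-83578886. Capitals mark 4 motifs searched on both strands. They were the TATA box in the letters TATAAA and the NF-kB motif in the letters GGGNNNNNCC, in which N stands for any base. The AP-1 motif was searched in the letters TGANTCA. The ETS motif was searched in the letters AGGAAG.
Ccl3: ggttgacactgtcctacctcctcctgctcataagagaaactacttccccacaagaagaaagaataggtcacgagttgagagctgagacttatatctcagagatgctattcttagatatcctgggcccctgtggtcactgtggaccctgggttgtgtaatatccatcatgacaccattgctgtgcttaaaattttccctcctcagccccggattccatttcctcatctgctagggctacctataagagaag
Ccl6: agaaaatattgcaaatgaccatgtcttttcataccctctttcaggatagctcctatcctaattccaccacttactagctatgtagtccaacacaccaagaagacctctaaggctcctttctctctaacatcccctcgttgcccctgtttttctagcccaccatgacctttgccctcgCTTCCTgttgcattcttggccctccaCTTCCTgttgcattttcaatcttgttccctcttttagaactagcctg
Ccl9: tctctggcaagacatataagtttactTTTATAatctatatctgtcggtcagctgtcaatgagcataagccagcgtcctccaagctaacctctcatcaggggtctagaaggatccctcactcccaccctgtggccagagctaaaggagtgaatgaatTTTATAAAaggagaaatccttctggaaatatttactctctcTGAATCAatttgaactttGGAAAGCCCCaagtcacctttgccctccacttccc
The Ccl3 window held none of the 4 motifs in these letters. The Ccl6 window held 2 ETS motifs. The Ccl9 window held 3 TATAAA matches, of which a pair overlapped on opposite strands, and 1 NF-kB and 1 AP-1 motif. Of 32851 windows of the same length in the RefSeq table, 12.4% held TATAAA, 45.8% the NF-kB motif, 6.75% the AP-1 motif and 29.5% the ETS motif. A match is a description of the letters. Of the 10 genes, 8 had a window in the table.

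Ccl3 encodes MIP-1 alpha, a ligand of CCR1. It had gene values of 8.30 and 7.38 in mCG-PR SLAM cells, against 6.80 and 6.40 in WT SLAM cells. Its KLS values were 10.33, 10.36 and 9.15 at 6 weeks and 10.12 and 10.46 at 13 weeks in mCG-PR mice, against 9.73, 10.04, 10.14 and 10.63 in WT mice. Every SLAM array lay below every KLS array, and within SLAM cells both mCG-PR arrays lay above both WT arrays. Of the 10575 tested genes, 1736 had both mCG-PR SLAM arrays above both WT SLAM arrays, and 1988 had both below. Ccl3 was chosen for its low values on the WT SLAM arrays, so its order in SLAM cells is a description. From high to low, the Ccl3 group means ran mCG-PR KLS of 13 weeks, WT KLS, mCG-PR KLS of 6 weeks, mCG-PR SLAM, WT SLAM. The ranges of the 3 KLS groups overlapped.

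**Figure D1:**
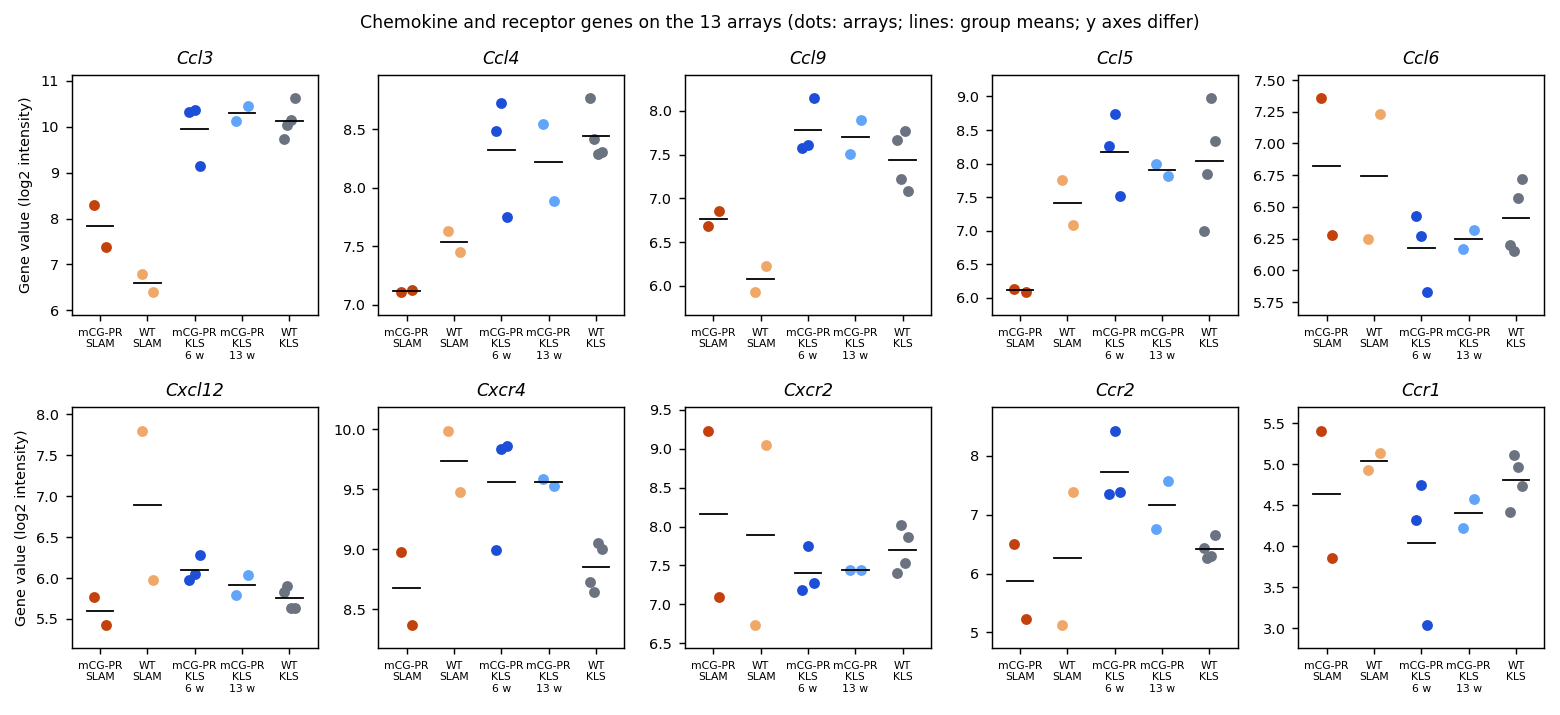
Gene values (y axis, log2 intensity, a scale for each panel) of the 10 genes on each array (dots) by group (x axis), with group means as lines. Ccl3 lies between 6.40 and 8.30 on the SLAM arrays and between 9.15 and 10.63 on the KLS arrays, and Cxcr4 is higher in both mCG-PR KLS groups than in WT KLS on all arrays but 1.

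The choice of Ccl3 and Ccl4 used WT SLAM and WT KLS cells. The population difference was therefore tested between mCG-PR SLAM cells and mCG-PR KLS cells of 6 weeks, arrays the choice did not use. Earlier results of these data were known when this test was chosen, and the fit took its spread from all 13 arrays. Ccl3 averaged 7.84 ± 0.65 in mCG-PR SLAM cells (SD, n = 2) and 9.95 ± 0.69 in mCG-PR KLS cells of 6 weeks (SD, n = 3). The log2 difference was -2.10 ± 0.49, a 4.3-fold lower level in SLAM cells (limma, adjusted p = 0.0126). Of the tested genes, 1.35% had a more negative difference. All 4 Ccl3 probe sets were lower in mCG-PR SLAM cells, with log2 differences from -4.17 to -0.94. They did not move alike: the first was at 8.01 and 10.59 on the mCG-PR SLAM arrays, against 10.81, 10.70 and 9.19 on those of mCG-PR KLS cells, while the second was at 5.40 and 5.10 against 9.45, 9.98 and 8.81. Without mCG-PR SLAM replicate 2 the Ccl3 difference was -1.65, with an adjusted p of 0.182 by limma. Without mCG-PR KLS replicate 3 of 6 weeks, the array with a low Y-linked level, it was -2.50 (limma, adjusted p = 0.00236). Both mCG-PR SLAM arrays also had a low Y-linked level. Without that KLS array the population and the Y-linked level therefore cannot be told apart. With it, that array alone parts them, and it was the lowest of the KLS arrays in Ccl3, at 9.15. The same array alone parts them for the other genes in this comparison.

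Of the 9 tested members, Ccl3, Ccl5 and Ccr2 were called lower in mCG-PR SLAM cells than in mCG-PR KLS cells of 6 weeks and none higher, against 12.3% of all tested genes called lower. For 7 of the 9, both SLAM arrays lay below all 3 KLS arrays, as they did for 35.1% of all genes. Cxcl12 is among the 7. Its mean log2 value was 5.98 without the mCG-PR KLS arrays of 6 weeks, below the filter of 6.00. Its place in this count and in the median of the 9 is therefore a description. The median difference of the 9 was -1.01, beside -0.19 for all tested genes, of which 63.3% were lower. In bulk samples fewer cells of a type and less RNA per cell cannot be told apart. Genes of T and NK cells, known producers of CCL3, CCL4 and CCL5, were also lower on average: the 13 measured stood at 5.58 and 5.64 in mCG-PR SLAM cells, against 5.99 to 6.31 in mCG-PR KLS cells of 6 weeks. Of the 6 tested, 5 were lower, with a median of -0.78, and Nkg7 (-2.55 ± 0.43, limma adjusted p = 0.00213) and Klrd1 (-2.85 ± 0.52, limma adjusted p = 0.00339) fell. Other measured genes of this list went the other way: Cd3e, Cd3d, Cd4 and Klrb1c averaged higher in mCG-PR SLAM cells. Cd3e was at 6.92 and 7.38 there, against 6.79, 6.08 and 6.85 in mCG-PR KLS cells of 6 weeks. The 6 genes of plasmacytoid dendritic cells averaged 6.54 and 6.70 in mCG-PR SLAM cells, against 7.74 to 8.14 in mCG-PR KLS cells of 6 weeks. All 5 tested were lower, with a median of -1.31, and Irf8 (-1.93 ± 0.41, limma adjusted p = 0.00774), Siglech (-1.89 ± 0.30, limma adjusted p = 0.00152) and Tcf4 (-1.31 ± 0.27, limma adjusted p = 0.00615) fell. Genes of basophils and mast cells averaged 5.67 and 5.95 against 6.21 to 7.13. Of the 6 tested, 4 were lower, and Mcpt8 fell (-2.73 ± 0.79, limma adjusted p = 0.0345). Those of monocytes and macrophages averaged 6.29 and 6.67 against 6.40 to 6.77, ranges that overlap. Only 4 of the 8 tested were lower, with a median of 0.14 for the 8, and Csf1r fell (-1.21 ± 0.37, limma adjusted p = 0.0459). The part of such cells in the chemokine differences was not tested.

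In the arrays used for the choice, given as a description, Ccl3 averaged 6.60 ± 0.29 in WT SLAM cells (SD, n = 2) and 10.14 ± 0.37 in WT KLS cells (SD, n = 4), a log2 difference of -3.54. All 4 probe sets were lower, by -4.78 to -2.69. Of all genes, 3.12% were called in that contrast in either direction. Ccl3 in mCG-PR SLAM cells stood 1.24 above WT SLAM cells on the log2 scale, and all 4 probe sets were higher, by 0.55 to 2.29; this is given with no test, since the WT SLAM arrays served in the choice.

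Ccl4 encodes the CC chemokine MIP-1 beta and is the neighbour of Ccl3. It had 7.11 and 7.13 in mCG-PR SLAM cells, against 7.63 and 7.45 in WT SLAM cells. On the KLS arrays it read 8.49, 8.73 and 7.75 at 6 weeks and 8.55 and 7.89 at 13 weeks in mCG-PR mice, against 8.77, 8.42, 8.29 and 8.31 in WT mice. As for Ccl3, all SLAM arrays lay below all KLS arrays, but within SLAM cells the genotypes stood in the opposite order. The ranges of the KLS groups overlapped. The difference between mCG-PR SLAM cells and mCG-PR KLS cells of 6 weeks was -1.20 ± 0.40 and did not pass the threshold (limma, adjusted p = 0.0578). It passed with the mean of probe sets (limma, adjusted p = 0.0437), without array weights (0.00812) and without mCG-PR KLS replicate 3 of 6 weeks (-1.49, limma adjusted p = 0.0134). Without that replicate, as for Ccl3, the population and the Y-linked level cannot be told apart. All 5 probe sets were lower in mCG-PR SLAM cells, by -1.67 to -0.14. In WT SLAM cells against WT KLS cells the difference was -0.91, as a description, and between mCG-PR SLAM cells and WT SLAM cells it was -0.42, with no test.

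Over the 13 arrays the values of Ccl3 and Ccl4 had a Pearson correlation of 0.77, and over the 9 KLS arrays one of 0.29. The genes most like Ccl3 over the 13 arrays were Tmem184c and Flt3 (0.96 each), Il1r1 and Ifnar2 (0.95 each) and Nxt2 (0.94). Flt3, the receptor gene of multipotent progenitors, was at 8.35 and 8.51 in mCG-PR SLAM cells, 7.65 and 7.47 in WT SLAM cells, and 10.11 to 10.90 in KLS cells. Within the 9 KLS arrays the correlation of Ccl3 was 0.82 with Tmem184c, 0.57 with Nxt2, 0.33 with Il1r1, 0.30 with Flt3 and 0.22 with Ifnar2. Those most like Ccl4 were Srrt (0.94), Man1a (0.93), Cnrip1 (0.92), Ccdc181 and Sema3d (0.91 each), and Cnrip1 kept 0.95 within KLS cells. The arrays share their sorted populations, and the correlations are descriptions.

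Ccl9, whose product MIP-1 gamma binds CCR1, had 6.68 and 6.85 in mCG-PR SLAM cells, against 5.93 and 6.23 in WT SLAM cells. In KLS cells, Ccl9 had 7.58, 7.61 and 8.15 at 6 weeks and 7.51 and 7.90 at 13 weeks in mCG-PR mice, against 7.67, 7.22, 7.77 and 7.09 in WT mice. The populations did not overlap, and in SLAM cells both mCG-PR arrays lay above both WT arrays. That genotype difference was 0.68 ± 0.45 and did not pass (limma, adjusted p = 0.876), with 4 of 6 probe sets higher and 2 lower. Between mCG-PR SLAM cells and mCG-PR KLS cells of 6 weeks the difference was -1.01 ± 0.35 (limma, adjusted p = 0.0718), with 5 of 6 probe sets lower. It was called with the mean of probe sets (-1.30, limma adjusted p = 0.0227) and without array weights (0.0122). The WT populations differed by -1.35, as a description. Eif5b, Cul1 and Ccdc88a were most like Ccl9 over the 13 arrays (0.96 each).

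Ccl6, a CC chemokine known in mice, had 7.36 and 6.28 in mCG-PR SLAM cells, against 6.25 and 7.23 in WT SLAM cells. Its values in KLS cells were 6.43, 6.27 and 5.83 at 6 weeks and 6.17 and 6.32 at 13 weeks in mCG-PR mice, against 6.20, 6.15, 6.57 and 6.72 in WT mice. All neighbouring groups overlapped, and the spread was widest within the SLAM groups, where replicate 1 was the higher in mCG-PR cells and replicate 2 in WT cells. The difference between mCG-PR SLAM cells and mCG-PR KLS cells of 6 weeks was 0.64 ± 0.38 (limma, adjusted p = 0.305). WT SLAM replicate 2 was also the array with the highest late neutrophil genes, at 10.76 on average. On mCG-PR SLAM replicate 1, the array highest in Ccl6, these genes averaged 8.46. The part of neutrophil RNA in the Ccl6 values was not tested.

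Ccl5 encodes RANTES, a ligand of CCR1 and CCR3 made by activated T and NK cells. It had 6.14 and 6.09 in mCG-PR SLAM cells, against 7.76 and 7.08 in WT SLAM cells. KLS cells gave 8.26, 8.74 and 7.52 at 6 weeks and 7.99 and 7.82 at 13 weeks in mCG-PR mice, against 7.00, 7.85, 8.98 and 8.33 in WT mice. The mCG-PR SLAM arrays were the lowest of all, while WT SLAM and WT KLS arrays overlapped. Ccl5 fell by 2.06 ± 0.64 in mCG-PR SLAM cells relative to mCG-PR KLS cells of 6 weeks, a 4.17-fold lower level (limma, adjusted p = 0.0474). Of its 5 probe sets, 4 were lower, with differences from -2.06 to 0.18, so the gene difference had the size of the most negative. The probe set with the highest values was at 10.15 and 10.12 in mCG-PR SLAM cells, against 10.30, 9.89 and 9.68 in mCG-PR KLS cells of 6 weeks. With the mean of probe sets in place of the median the difference was -1.03 (limma, adjusted p = 0.176), and the call was also lost without either mCG-PR SLAM replicate (limma, adjusted p = 0.221 without replicate 1 and 0.23 without replicate 2) and without mCG-PR KLS replicate 1 (0.0703) or 2 (0.0957). Ccl5 in mCG-PR SLAM cells differed from WT SLAM cells by -1.30 ± 0.83, which did not pass (limma, adjusted p = 0.861).

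**Figure D2:**
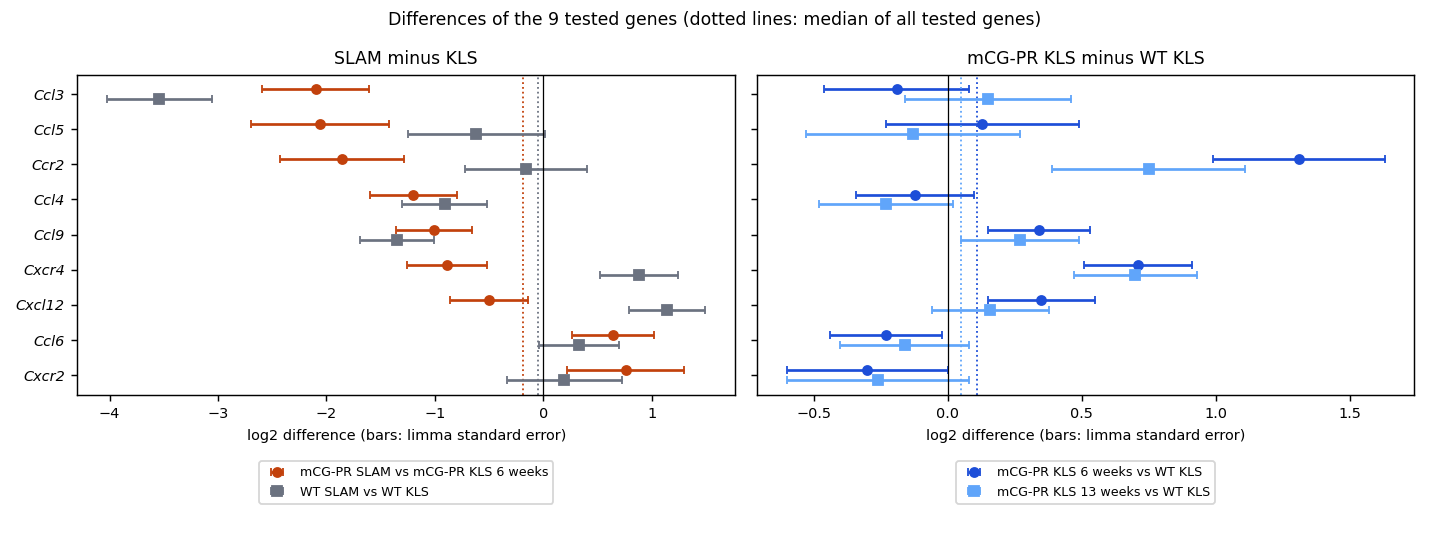
Log2 differences of the 9 tested genes (x axis; points with limma standard errors) for SLAM minus KLS cells in mCG-PR and WT mice (left; the WT values are a description) and for mCG-PR minus WT KLS cells at 6 and 13 weeks (right, both against the same WT KLS arrays). Ccl3 was at -2.10 in mCG-PR and -3.54 in WT mice, and Cxcr4 stood at -0.89 in mCG-PR and 0.88 in WT mice; dotted lines mark the medians of all tested genes.

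Cxcl12, the niche chemokine and ligand of CXCR4, had 5.77 and 5.43 in mCG-PR SLAM cells, against 7.80 and 5.98 in WT SLAM cells. KLS values were 5.98, 6.05 and 6.28 at 6 weeks and 5.79 and 6.04 at 13 weeks in mCG-PR mice, against 5.83, 5.90, 5.64 and 5.64 in WT mice. WT SLAM replicate 1 stood apart: 4 of the 9 probe sets were at 8.92, 10.89, 7.84 and 8.95 there. On WT SLAM replicate 2 the same 4 were at 5.23, 5.82, 4.16 and 6.03. Cxcl12 passed the filter on low values, a mean log2 value of 6.00, narrowly: its mean was 6.01 over all 13 arrays, 5.85 without the WT SLAM arrays and 5.98 without those of mCG-PR KLS cells of 6 weeks. Its place in counts of groups that do not overlap is therefore a description.

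The difference between mCG-PR SLAM cells and WT SLAM cells was -1.29 ± 0.46, and -0.37 without WT SLAM replicate 1. No p is given for it, since the gene passed the filter only with the WT SLAM arrays in the mean. Gpx3 (0.97), Insr (0.91) and Igfbp7 (0.90) were most like Cxcl12 over the 13 arrays. Gpx3 was at 7.61 and Igfbp7 at 8.05 on WT SLAM replicate 1, and the highest of the other arrays were at 6.31 for Gpx3 and 6.84 for Igfbp7. The 10 measured genes of stromal and endothelial cells, Cxcl12 left out, averaged 6.76 on that array and 6.40 to 6.84 on all 13. Among them Lepr (5.10), Kitl (5.94) and Emcn (8.89) had their highest value on WT SLAM replicate 1. The others did not: Col1a1 (7.19), Col1a2 (6.91), Pdgfrb (5.66), Cdh5 (6.06), Pecam1 (7.15), Kdr (4.65) and Angpt1 (10.11).

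**Figure D3:**
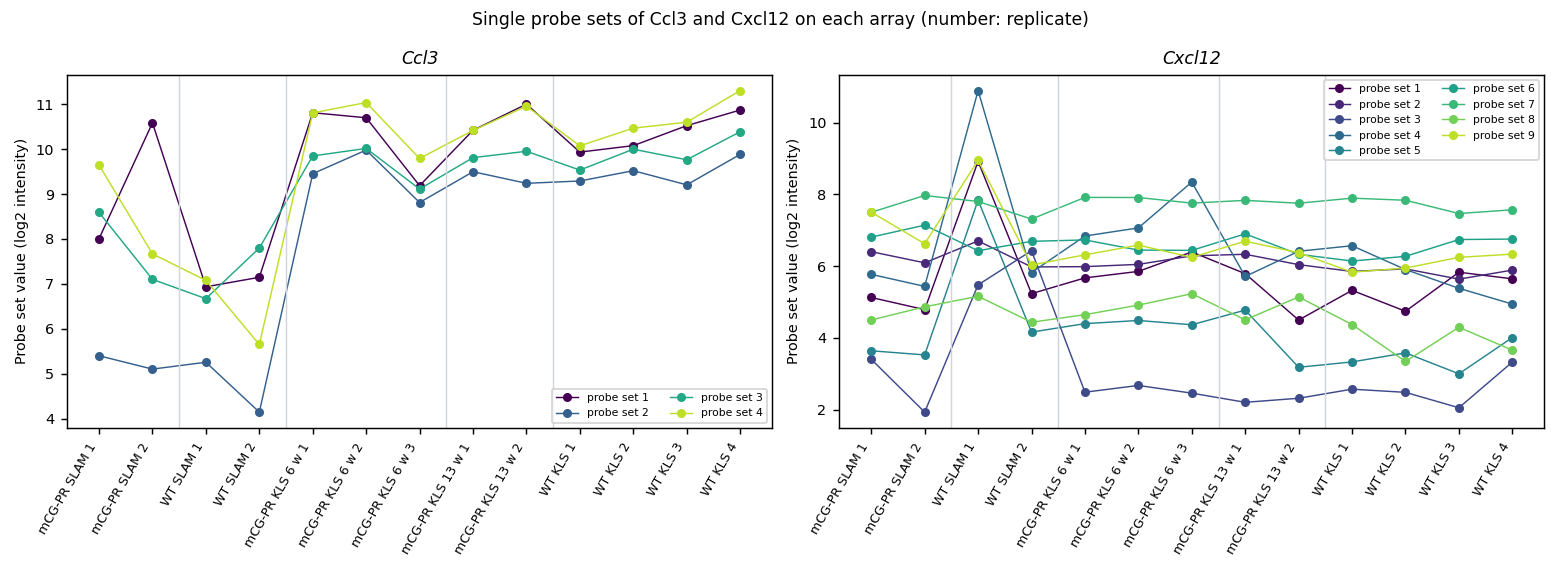
Log2 intensity (y axis) of each of the 4 Ccl3 probe sets (left) and 9 Cxcl12 probe sets (right) on each array (x axis; the last number is the replicate, lines join the values of a probe set). In mCG-PR SLAM replicate 2 the first Ccl3 probe set is at 10.59, in the range of the KLS arrays, and on WT SLAM replicate 1 a Cxcl12 probe set reaches 10.89.

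Cxcr4, the receptor of CXCL12, had 8.98 and 8.37 in mCG-PR SLAM cells, against 9.99 and 9.48 in WT SLAM cells. On KLS arrays the receptor gene read 8.99, 9.84 and 9.86 at 6 weeks and 9.59 and 9.53 at 13 weeks in mCG-PR mice, against 8.73, 8.64, 9.05 and 9.0 in WT mice. By the gene value, the genotypes stood in opposite order in the populations. Both mCG-PR SLAM arrays lay below both WT SLAM arrays, as they did for 1988 of the 10575 tested genes. In KLS cells, 4 of the 5 mCG-PR arrays lay above all WT arrays. The group means ran from WT SLAM through mCG-PR KLS of 6 and 13 weeks to WT KLS and mCG-PR SLAM, and the one gap in this order without overlap was that between mCG-PR KLS of 13 weeks and WT KLS.

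None of these Cxcr4 differences passed the threshold over all genes. In mCG-PR KLS cells of 6 weeks the value stood 0.71 ± 0.20 above WT KLS cells (limma, unadjusted p = 0.0031, adjusted p = 0.207), and in those of 13 weeks 0.70 ± 0.23 above them (limma, unadjusted p = 0.0076, adjusted p = 0.227). All 4 probe sets were higher in both. Without mCG-PR KLS replicate 1 of 6 weeks the first difference was 0.99 and was called (limma, adjusted p = 0.0399). In mCG-PR SLAM cells the value differed from WT SLAM cells by -1.06 ± 0.47 (limma, adjusted p = 0.648). There the probe sets disagreed: 3 were lower and 1 higher, with differences from -1.86 to 0.29. With the mean of probe sets the SLAM difference was -0.59 (limma, adjusted p = 0.787). The genotype difference in SLAM cells minus that in KLS cells of 6 weeks was -1.77 ± 0.51 (limma, unadjusted p = 0.00347, adjusted p = 0.301), and with KLS cells of 13 weeks it was -1.77 ± 0.52 (limma, adjusted p = 0.454). That contrast called 0.0189% of all genes at 6 weeks and 0% at 13 weeks, and no member. Leng9 (0.84), Tmem9b (0.83) and Grn (0.83) were most like Cxcr4 over the 13 arrays.

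Ccr2, the receptor of CCL2 through which monocytes leave the marrow, had 6.50 and 5.23 in mCG-PR SLAM cells, against 5.13 and 7.39 in WT SLAM cells. Among KLS cells it had 7.35, 8.43 and 7.39 at 6 weeks and 6.76 and 7.57 at 13 weeks in mCG-PR mice, against 6.43, 6.27, 6.30 and 6.65 in WT mice. Every mCG-PR KLS array lay above every WT KLS array, and the SLAM groups overlapped. Ccr2 fell by 1.86 ± 0.57 in mCG-PR SLAM cells relative to mCG-PR KLS cells of 6 weeks (3.63-fold, limma adjusted p = 0.0439), with all 4 probe sets lower. The call was lost without mCG-PR SLAM replicate 2 (-1.22, limma adjusted p = 0.432) or replicate 1 (-2.49, limma adjusted p = 0.08), and without mCG-PR KLS replicate 2 (-1.51, limma adjusted p = 0.0828). It was also lost under quantile normalization (limma, adjusted p = 0.0881) and with array medians subtracted (0.0813), as was that of Ccl5 (0.108 and 0.0968). The WT populations differed by -0.16, as a description. The WT SLAM arrays lay on opposite sides of the WT KLS arrays. The difference was 0.98 without WT SLAM replicate 1 and -1.29 without WT SLAM replicate 2.

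The Ccr2 difference between mCG-PR KLS cells of 6 weeks and WT KLS cells was 1.31 ± 0.32, or 2.48-fold (limma, unadjusted p = 8.30e-04, adjusted p = 0.151), and at 13 weeks 0.75 ± 0.36 (limma, adjusted p = 0.376). Neither passed, and all 4 probe sets were higher at both ages. Both comparisons use the same WT KLS arrays, and that of 6 weeks sets younger mCG-PR mice against older WT mice, so age and genotype cannot be told apart there. Genes of other cell types stood higher on the same arrays. The 6 genes of plasmacytoid dendritic cells averaged 7.74 to 8.14 in mCG-PR KLS cells of 6 weeks and 7.57 and 7.70 in those of 13 weeks, against 6.74 to 7.31 in WT KLS cells. Of the 5 tested, Siglech (1.61 ± 0.17, limma adjusted p = 7.08e-04) and Irf8 (1.47 ± 0.23, limma adjusted p = 0.0405) rose at 6 weeks. mCG-PR KLS replicate 2 of 6 weeks, the array highest in Ccr2, was also highest in basophil and mast cell genes (7.13, against 5.60 to 6.78 on the other arrays), and without it the Ccr2 difference was 0.96 (limma, adjusted p = 0.467). The part of these cells in the Ccr2 difference was not tested.

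Cxcr2, the receptor of neutrophil-attracting CXC chemokines, had 9.23 and 7.10 in mCG-PR SLAM cells, against 6.74 and 9.04 in WT SLAM cells. In KLS cells the values were 7.19, 7.75 and 7.27 at 6 weeks and 7.44 and 7.44 at 13 weeks in mCG-PR mice, against 7.40, 8.02, 7.53 and 7.86 in WT mice. Replicates within each SLAM group differed more than any group means did, and all neighbouring groups overlapped. The difference between mCG-PR SLAM cells and mCG-PR KLS cells of 6 weeks was 0.76 ± 0.54 (limma, adjusted p = 0.417) and that between mCG-PR and WT SLAM cells 0.27 ± 0.70 (limma, adjusted p = 0.998). Late neutrophil genes averaged 10.76 on WT SLAM replicate 2 but 8.46 on mCG-PR SLAM replicate 1, both arrays with high Cxcr2. Over the 13 arrays Cxcr2 correlated with Ccl6 at 0.83, and over the 9 KLS arrays at 0.28.

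Ccr1, the receptor of CCL3, CCL5 and CCL9, had 5.41 and 3.86 in mCG-PR SLAM cells, against 4.93 and 5.14 in WT SLAM cells. KLS arrays gave it 4.32, 4.75 and 3.04 at 6 weeks and 4.22 and 4.58 at 13 weeks in mCG-PR mice, against 4.42, 5.11, 4.97 and 4.73 in WT mice. All neighbouring groups overlapped, and these values lay below the filter at a mean log2 value of 6.00. In a fit with no filter, the difference between mCG-PR KLS cells of 6 weeks and WT KLS cells was -0.77 ± 0.34 (limma, adjusted p = 0.457).

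Between the genotypes no tested member was called, in comparisons that for Ccl3, Ccl4 and Cxcl12 are descriptions. In SLAM cells 0.0284% of all genes, 3 in number, were called by limma in either direction, and 771 had an unadjusted p under 0.05, among them Cxcr4. Ccl3 and Ccl9 were the 2 of 9 members with no overlap, higher, in SLAM cells, against 1736 of 10575 genes. The 4 with no overlap, lower, were Ccl4, Ccl5, Cxcl12 and Cxcr4, against 1988 genes. In KLS cells of 6 weeks against WT, 0.113% were called and 1330 genes had an unadjusted p under 0.05, among them Ccr2 and Cxcr4. In KLS cells of 13 weeks 0% were called by limma, with 1433 genes at an unadjusted p under 0.05, among them Cxcr4. Ccr2 and Cxcl12 were the 2 of 9 members with no overlap, higher, at 6 weeks, against 9.46% of all genes, and Ccr2 and Cxcr4 were the 2 at 13 weeks, against 14.8%. Ccl3 differed from WT KLS cells by -0.19 ± 0.27 at 6 weeks and 0.15 ± 0.31 at 13 weeks, and Ccl4 by -0.12 ± 0.22 and -0.23 ± 0.25, given with no test, since the WT KLS arrays served in the choice. Between mCG-PR KLS cells of 13 and of 6 weeks, 0.00946% of genes were called and no member, and the differences of the 9 tested members ran from -0.56 ± 0.38 for Ccr2 (limma, adjusted p = 0.572) to 0.34 ± 0.33 for Ccl3 (limma, adjusted p = 0.705).

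Other genes of the pathway were followed in 3 lists. Of 53 other chemokine and receptor genes, 43 were measured and 22 tested, and 1 fell in mCG-PR SLAM cells relative to mCG-PR KLS cells of 6 weeks, where 12.3% of all tested genes were called lower. This was Cxcr6, the receptor of CXCL16, at 5.67 and 5.59 against 7.07, 7.26 and 7.56, a difference of -1.66 ± 0.30 (limma, adjusted p = 0.00291). The list's median difference was 0.02, beside -0.19 for all genes. Of 26 genes of NF-kB and cell activation, 19 were tested and 1 fell, beside the same 12.3%: Rel, an NF-kB subunit, by 1.56 ± 0.37 (limma, adjusted p = 0.0128). The median of that list was -0.01.

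Of 31 genes that act downstream of chemokine receptors, 28 were tested and 4 fell in mCG-PR SLAM cells relative to mCG-PR KLS cells of 6 weeks, a share near the 12.3% of all genes called lower. They were Rgs10, a regulator of G protein signalling (-1.87 ± 0.26, limma adjusted p = 7.95e-04), the integrin gene Itgb1 (-1.42 ± 0.31, limma adjusted p = 0.00888), Arrb2, the gene of an arrestin (-1.31 ± 0.36, limma adjusted p = 0.0279), and Dpp4, a protease that cleaves CXCL12 (-1.11 ± 0.33, limma adjusted p = 0.0355). The list had 24 of 28 differences below 0, where 63.3% of all genes were lower, and a median of -0.42, beside -0.19 for all genes. In the genotype comparisons none of the 3 lists had a called gene.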

How the data were processed

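RNA of sorted bone marrow cells was measured on 13 arrays in 5 groups. Per the labels' protocols, 20 ng of total RNA was amplified and biotin-labelled. The deposited table covered 229581 probe sets and gave linear intensity values from 2.34 to 21748.2, 1 for each array; per the submitters' processing notes they were made with RMA and the mm9 build. Log2 was taken and no further scaling applied. The 3965 probe sets listed with several genes and the 17219 with none were left out. Of the symbols, 2124 were updated through RefSeq synonyms; Cxcr2 stood under an older one. A gene needed at least 3 probe sets and a mean log2 value above the 30th percentile, 6.00.

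Groups were compared with limma 3.58.1 in R 4.3.3 (two-sided), all 13 arrays in 1 fit, with array weights by sorted population of 1.43 for KLS and 0.45 for SLAM. The fit was also run on simulated data whose spread was set for each sorted population apart, as the weights assume. Its outcome is not given here. The genotype by population contrast was added after the first results were seen. The 10 genes, the lists and the tests were chosen with earlier results of these data known. All 10 genes are named, with up to 5 genes most like each tested one. Replicates with the same number did not deviate together (21 pairs, correlations from -0.07 to 0.08), so numbers were not taken as pairs. The alternatives were other filters, the mean of probe sets, 2 other scalings, no weights, the replicate block, WT KLS of 12 or 13 weeks alone and each array left out.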

Additional observations from a re-analysis of the deposited data

How the results depend on the processing

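With 2 or 3 arrays in most groups, calls in SLAM cells depended on single arrays and on the scaling. Between mCG-PR SLAM cells and mCG-PR KLS cells of 6 weeks, 3 members were called; 1 was called with no filter, under quantile normalization and with array medians subtracted, 6 without array weights, and 0 to 4 with single replicates left out. All genes called numbered 1387, against 779 under quantile normalization, 873 with array medians subtracted, 2394 without weights and 397 to 1515 with replicates left out. The median of all genes was -0.19, against 0.00 under quantile normalization and -0.02 with medians subtracted. Ccl3 kept its direction, from -2.56 to -1.65, and its adjusted p lay between 0.00184 and 0.0495 by limma except without mCG-PR SLAM replicate 2.

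With the replicate number as a block, the Ccl3 difference was -2.26 (limma, adjusted p = 0.0133), Ccl4 was called (-1.40, limma adjusted p = 0.0222) and Ccl5 was not (-1.97, limma adjusted p = 0.0945).

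Between mCG-PR and WT SLAM cells no member was called under any alternative, while the 3 genes called in all became 270 without weights, 1 with a filter at the 50th percentile, under quantile normalization and with array medians subtracted, 0 with the mean of probe sets, and 0 to 2 with replicates left out. For mCG-PR KLS cells of 6 weeks against WT, 12 genes became 3 with no filter and with the replicate block, 1 without weights, 0 against WT KLS of 12 weeks alone and 1 to 29 with replicates left out, and members called 0 to 1. At 13 weeks, 0 became 1 with the mean of probe sets, a 50th percentile filter and either scaling, 2 against WT KLS of 13 weeks alone, and 0 to 10 with replicates left out. For 13 against 6 weeks, 1 became 0 with no filter, without weights and with the block, and 0 to 20 with replicates left out. Small differences changed sign, none of them called. Cxcr2 between mCG-PR and WT SLAM cells was -0.65 with the mean of probe sets. Ccl3 at 6 weeks against WT KLS was 0.06 with WT KLS of 13 weeks alone, and at 13 weeks -0.10 with those of 12 weeks alone. Ccl4 at 6 weeks was 0.00 with the mean of probe sets and 0.02 against WT KLS of 12 weeks alone, and at 13 weeks 0.14 with the mean of probe sets. With single replicates left out, Cxcr2 ran from -0.31 to 1.82 between mCG-PR SLAM and mCG-PR KLS cells of 6 weeks. Between mCG-PR and WT SLAM cells Cxcr2 ran from -0.88 to 1.43, Ccl6 from -0.46 to 0.62 and Ccr2 from -1.52 to 0.74. Against WT KLS, Ccl3 ran from -0.40 to 0.21 at 6 weeks and -0.02 to 0.32 at 13 weeks, and Ccl4 from -0.32 to 0.16 and from -0.56 to 0.11. Ccl3 at 13 against 6 weeks ran from -0.06 to 0.55. The causes were not tested.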
